A study of Homo sapiens with 6 samples.

Results

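The genes described here make, break down, export and sense prostaglandin E2 (PGE2), a lipid signal derived from arachidonic acid. The 10 members, named by gene symbol, are PLA2G4A, PTGS1, PTGS2, PTGES, PTGES2, PTGES3, HPGD, ABCC4, PTGER2 and PTGER4. They were taken from 23180 gene symbols in the deposited count table, each by its RefSeq transcript with the largest count summed over all samples. RNA was sequenced from 6 samples of A549 cells, an established human lung adenocarcinoma cell line, listed as wild type and at passage 11. Of these, 3 biological replicates had been transfected with a control siRNA (siControl) and 3 with an siRNA against the α subunit of the histone methyltransferase KMT9 (siKMT9α#1), and cells were harvested 3 days later. The number of the siRNA and the time come from the study's methods, since the labels give the target alone. All samples are of 1 cell line and 1 siRNA against KMT9α, so an effect of the knock-down and another effect of this siRNA cannot be told apart.

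PGE2 synthesis starts when cytosolic phospholipase A2 frees arachidonic acid from membrane phospholipids. A cyclooxygenase turns the acid into prostaglandin H2, and a prostaglandin E synthase turns that into PGE2. The product leaves the cell partly through a transporter, is inactivated inside cells by a dehydrogenase, and acts on 4 G protein-coupled receptors, EP1 to EP4, encoded by PTGER1 to PTGER4. In lung tumours the inducible cyclooxygenase COX-2 and PGE2 are known for effects on growth and on immune cells, and A549 is a line in which COX-2 is commonly studied.

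The promoters of the members that stand at the entry of the pathway, PLA2G4A and PTGS2, and of the synthase PTGES are shown because the transcripts of PTGS2 and PTGES rose together after the knock-down while that of PLA2G4A fell. The windows are RefSeq's, on build GRCh38.p14, and run from 250 bases before the transcript start to 50 bases from it on. Each is printed on the strand of the gene. In the PTGS2 window, on the minus strand at chr1:186680374-186680673, the capitals mark in this order an NF-kB motif, a C/EBP motif, a CRE half-site read on the other strand, a TATA box and a further CRE half-site on the other strand.
PTGS2: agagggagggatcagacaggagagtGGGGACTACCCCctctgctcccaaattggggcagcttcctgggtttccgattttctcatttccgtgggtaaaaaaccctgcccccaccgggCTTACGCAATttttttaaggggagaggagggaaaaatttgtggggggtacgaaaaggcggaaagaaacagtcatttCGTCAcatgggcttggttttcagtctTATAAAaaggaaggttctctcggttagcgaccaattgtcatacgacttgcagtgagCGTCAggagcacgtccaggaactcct
In the PLA2G4A window, on the plus strand at chr1:186828699-186828998, nothing is in capitals, since none of the motifs searched had a match.
PLA2G4A: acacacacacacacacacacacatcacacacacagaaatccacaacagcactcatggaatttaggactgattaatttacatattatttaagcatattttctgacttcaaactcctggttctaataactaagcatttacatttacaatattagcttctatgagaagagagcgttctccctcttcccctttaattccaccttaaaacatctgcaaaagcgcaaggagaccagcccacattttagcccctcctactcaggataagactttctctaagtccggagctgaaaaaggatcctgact
In the PTGES window, on the minus strand at chr9:129752993-129753292, the capitals mark the GC boxes.
PTGES: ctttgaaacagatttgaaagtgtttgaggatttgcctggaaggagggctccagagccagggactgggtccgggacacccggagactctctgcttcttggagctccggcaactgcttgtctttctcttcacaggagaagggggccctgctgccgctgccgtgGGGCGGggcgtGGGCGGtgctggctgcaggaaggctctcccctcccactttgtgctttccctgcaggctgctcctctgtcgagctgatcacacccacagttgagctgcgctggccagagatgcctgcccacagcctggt

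The NF-kB motif was searched as GGG and CC with any 5 bases between them. The CRE half-site was searched as TGACG. The C/EBP motif was TTNNGNAAN. The TATA box was TATAAA, the GC box GGGCGG. Both strands of all windows were searched, and a match is a description of the letters, not of a bound site. In the PTGS2 window the first base of the TATA box stood 32 bases before the transcript start, and the first bases of the CRE half-sites stood 58 bases before and 25 bases after it. The 4 NF-kB matches of PTGS2 overlap each other, as do its 2 C/EBP matches, and its 2 CCAAT matches are not in capitals. In the PTGES window the GC boxes began 89 and 78 bases before the start, and 1 NF-kB match on the other strand is not in capitals. Over 35116 RefSeq promoters of the same length, the CRE half-site was found in 24.6%, the NF-kB motif in 58.7%, the C/EBP motif in 36.8%, the TATA box in 11.5%, the GC box in 45.0% and CCAAT in 34.6%. The other motifs searched were TGANTCA (AP-1), found in 7.71%, and CACGTG (E-box), found in 7.26%. All 10 members matched the RefSeq table, with 14 windows between them, and the GC content was 39.7% in the PLA2G4A window, 50.7% in that of PTGS2 and 61.7% in that of PTGES, beside a median of 58.7% over all promoters. Matches also occurred in windows not printed, counted with overlaps. PTGES3, which fell, had 1 CRE half-site, 5 NF-kB and 4 GC box matches. A window of PTGES2, which was not called, had 5 NF-kB and 4 GC box matches. ABCC4, which rose, had 1 CRE half-site and 3 NF-kB matches. PTGER2, which also rose, had 1 CRE half-site, 5 NF-kB and 2 GC box matches. A relation of motifs to the direction of change was not tested.

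Read totals over the chosen transcripts lay between 13740097 and 19832395.5 estimated counts per sample. N6AMT1, which encodes KMT9α, had 10.2, 10.9 and 11.4 CPM (counts relative to the library total, scaled by the TMM method) with siControl and 2.87, 3.22 and 3.35 with siKMT9α#1. Its log2 fold change was -1.77 (adjusted p = 1.43e-10, quasi-likelihood test of edgeR, Benjamini-Hochberg adjusted over the 13877 genes tested). TRMT112, which encodes the β subunit, had a log2 fold change of -0.38 (adjusted p = 2.9e-05). The summed level of 9 epithelial and A549 markers was 7368 to 7745 CPM with siControl and 5962 to 6069 with siKMT9α#1. Among these markers KRT8 fell (log2 fold change -1.28), EPCAM fell (-2.76) from a low level of 3.85 CPM, and CDH1 rose (1.34) from 3.38 CPM. The summed level of 7 fibroblast markers was 7.66 to 9.77 CPM and then 3.87 to 5.07, with COL1A2 at 0 in every sample. That of 7 leukocyte markers was 81.8 to 88.7 CPM and then 29.0 to 30.4, nearly all of it CD68, with CD3E at 0. That of 5 endothelial markers was at most 1.12 CPM in any sample. The part of these marker shifts in the results below was not tested. In bulk RNA, fewer cells of a type and less RNA per cell cannot be told apart.

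After the knock-down, transcripts for PTGS2, PTGES, HPGD, ABCC4 and both receptors rose, PLA2G4A and PTGES3 fell, PTGES2 did not pass the test and PTGS1 was too low to be tested. Of the 10 members, 9 passed the filter on low counts and 8 of these were called at an adjusted p under 0.05, of which 6 rose and 2 fell. The background is large: 75.6% of the 13877 genes tested passed the same threshold, 37.1% higher and 38.5% lower, so a passed test does not set a member apart. At a stricter threshold, p under 1e-08 and an absolute log2 fold change above 0.26, 5 members were called, 4 higher (PTGS2, PTGES, HPGD, ABCC4) and 1 lower (PLA2G4A), beside a background of 24.2%, with 13.5% higher and 10.7% lower. The siControl and siKMT9α#1 values did not overlap for 8 of the 9 tested members, beside 77.0% of all genes tested. The median log2 fold change of the tested members was 0.95 and their median absolute value 1.00, while over all genes tested these were -0.01 and 0.47. The members were chosen with earlier results of these data known. Their counts and medians beside all genes are therefore a description and cannot show that the pathway stands out.

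**Figure D1:**
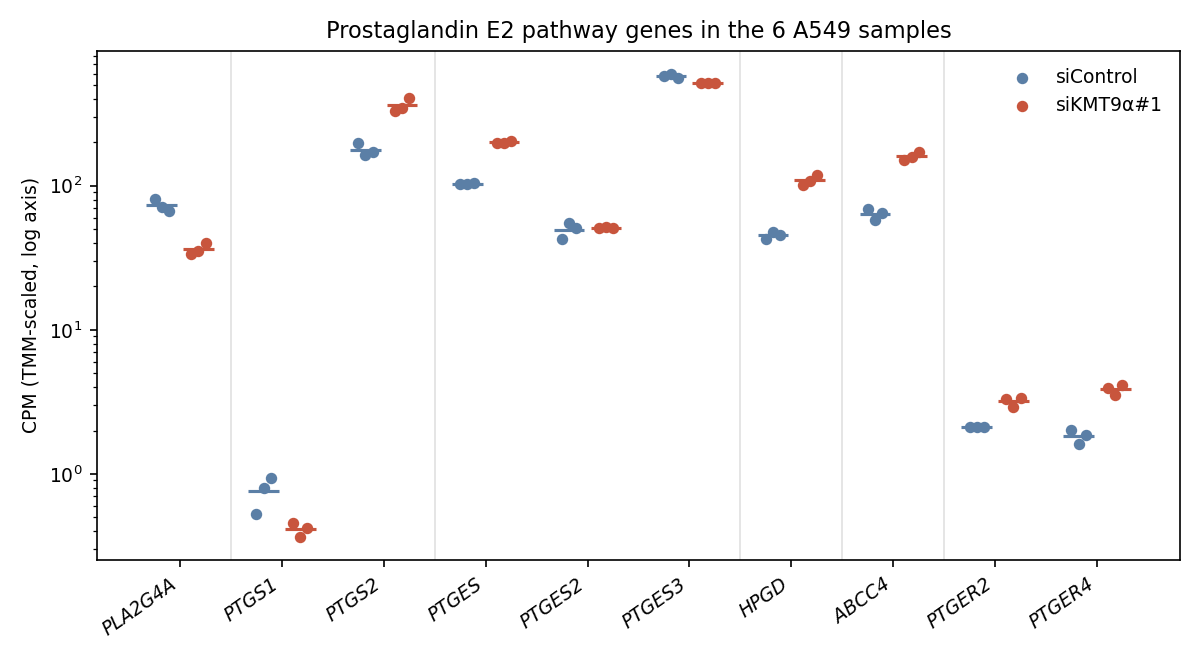
Level of each of the 10 members in each sample, as TMM-scaled CPM on a log axis, with siControl in blue and siKMT9α#1 in red; points are samples and horizontal bars are means of 3. The siKMT9α#1 points lie above those of siControl for PTGS2, PTGES, HPGD, ABCC4, PTGER2 and PTGER4, below them for PLA2G4A, PTGS1 and PTGES3, and among them for PTGES2.

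PLA2G4A encodes cytosolic phospholipase A2 alpha, which releases arachidonic acid. Its level was 80.9, 70.9 and 67.2 CPM in the siControl samples and 33.9, 35.2 and 39.8 CPM in the siKMT9α#1 samples. Every siKMT9α#1 sample was thus below every siControl sample. The means were 73.0 ± 7.11 and 36.3 ± 3.12 CPM (SD, n = 3 each), a ratio of 0.497, and the log2 fold change was -1.0 ± 0.07 (SE; adjusted p = 2.93e-10). Of all genes tested, 20.4% had a larger absolute log2 fold change. The transcript, NM_024420, lies on the plus strand of chromosome 1 of hg19 from 186798032 to 186958113. Of the members, PLA2G4A and PTGS2 are neighbours, with 148.473 kb between them, and their transcripts moved in opposite directions.

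PTGS2 encodes the inducible cyclooxygenase COX-2. Its level was 197, 163 and 172 CPM with siControl and 329.5, 348 and 408 CPM with siKMT9α#1. The lowest siKMT9α#1 sample was well above the highest siControl sample. The means were 177 ± 17.2 and 362 ± 41.1 CPM (SD, n = 3 each), a 2.04-fold difference, with a log2 fold change of 1.03 ± 0.07 (SE; adjusted p = 1.59e-10). A larger absolute change was seen in 19.4% of the genes tested. Its transcript, NM_000963, lies on the minus strand of chromosome 1 from 186640944 to 186649559, and its promoter is the one printed above with a TATA box.

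PTGS1 encodes the constitutive cyclooxygenase COX-1. It had 9.5, 13 and 18 counts with siControl and 6, 5 and 8 with siKMT9α#1, which is 0.757 ± 0.206 and 0.412 ± 0.044 CPM (SD, n = 3 each). The groups did not overlap, but the gene fell below the filter. When no filter was used, its log2 fold change was -0.85 (adjusted p = 0.069), with 59.5% of the 18751 genes in that fit under the threshold. It was called when its 2 overlapping transcripts were summed (-0.84, adjusted p = 0.0229). Doubling counts in place of rounding them also gave a call (-0.83, adjusted p = 0.0498). The 2 transcripts have nearly the same counts, so both settings count the same reads again and are no separate evidence. Over all genes, 5232 were called higher and 5299 lower when summed, and 5400 and 5379 when doubled. PTGS1 was also called without siControl replicate 1 (-1.05, adjusted p = 0.0157), where 5198 genes were higher and 5115 lower. Without that sample, the siControl sample with the lowest PTGS1 count, 3 members were lower. PTGS1 was not called without siControl replicate 2 (adjusted p = 0.0758). Nor was it called without siKMT9α#1 replicate 1, 2 or 3 (adjusted p = 0.0537, 0.0868 and 0.0812). When siControl replicate 3 was left out, PTGS1 did not pass the filter. The GRCh37 annotation has a lncRNA on the same strand overlapping the span of PTGS1, and reads of the pair may not be told apart. Per kilobase of transcript, PTGS2 made up 99.6 ± 0.13% of the summed cyclooxygenase counts with siControl and 99.9 ± 0.017% with siKMT9α#1 (SD, n = 3 each), and the difference had an exact two-sided permutation p of 0.1, the smallest that 3 against 3 samples can give.

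**Figure D2:**
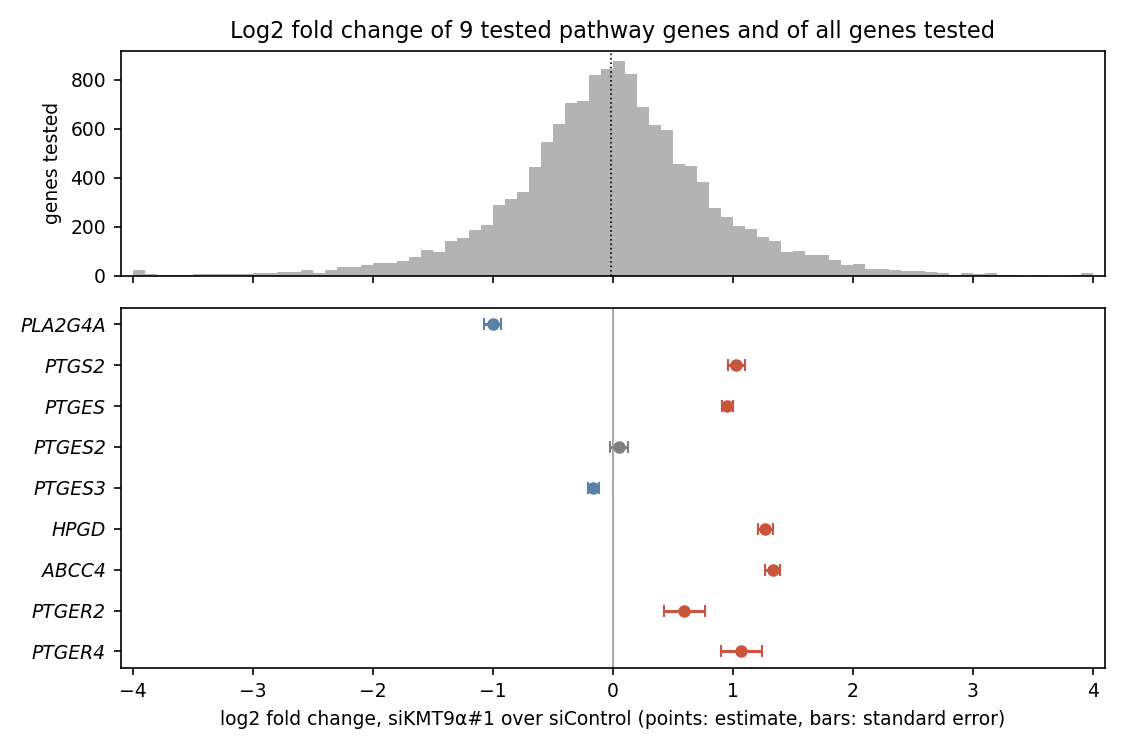
Top, histogram of log2 fold changes, siKMT9α#1 over siControl, over all 13877 genes tested, with the median dotted and 30 genes beyond 4 in either direction drawn in the last bins; bottom, the 9 tested members with their standard errors, red for higher, blue for lower and grey for not called. PLA2G4A, at -1.0, lies opposite to PTGS2 at 1.03, HPGD at 1.27 and ABCC4 at 1.33, and PTGES2 lies at 0.06, a value whose sign turned when libraries were scaled by size alone.

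Of the 3 prostaglandin E synthases, PTGES encodes the inducible microsomal enzyme that is often paired with COX-2. Its level was 103, 103 and 104 CPM with siControl and 199.5, 199.5 and 203 CPM with siKMT9α#1. The samples of each group lay very close together and far from the other group. The means were 104 ± 0.51 and 201 ± 2.26 CPM (SD, n = 3 each), a 1.94-fold difference, with a log2 fold change of 0.95 ± 0.05 (SE; adjusted p = 4.17e-13). The transcript, NM_004878, lies on the minus strand of chromosome 9 from 132500615 to 132515344.

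PTGES2 encodes the second membrane-associated synthase. Its level was 42.6, 55 and 50.6 CPM with siControl and 50.9, 52.0 and 50.7 CPM with siKMT9α#1. All siKMT9α#1 samples lay within the range of the siControl samples. The log2 fold change was 0.06 ± 0.07 (SE; adjusted p = 0.501), and its sign turned with library sizes in place of TMM factors. PTGES3 encodes the cytosolic synthase, also known as p23, a co-chaperone of HSP90. Its level was 581, 597 and 556 CPM with siControl and 516, 519.6 and 517 CPM with siKMT9α#1. The siKMT9α#1 samples lay below all siControl samples, by a small margin. Its log2 fold change was -0.16 ± 0.05 (SE; adjusted p = 0.00421), and 80.2% of the genes tested changed more. The GRCh37 annotation holds 5 PTGES3 pseudogenes, none of which the deposited table lists, and how reads shared with them were assigned is not stated. It also has a further RNA gene, RN7SL809P, on the same strand overlapping the span of PTGES3.

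Per kilobase, PTGES made up 15.1%, 14.5% and 15.6% of the counts of the 3 synthases in the siControl samples and 27.4%, 27.3% and 27.8% in the siKMT9α#1 samples. Its share was thus higher in every siKMT9α#1 sample. The means were 15.1 ± 0.51% and 27.5 ± 0.27% (SD, n = 3 each; exact two-sided permutation p = 0.1, the smallest possible). The share of PTGES3 was 77.9% to 79.5% with siControl and 66.2% to 66.6% with siKMT9α#1, while that of PTGES2 was 5.40% to 6.71% and then 6.03% to 6.18%. Such a share describes transcripts and not enzyme amounts.

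**Figure D3:**
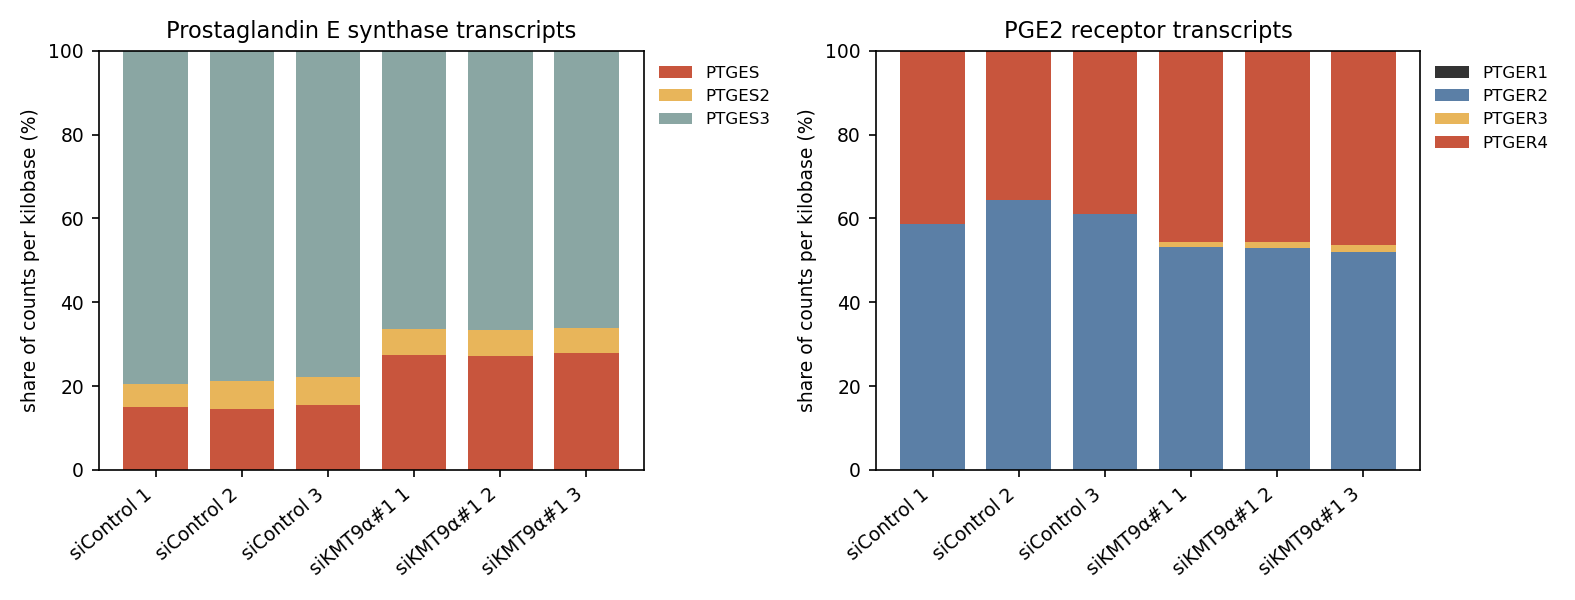
Share of counts per kilobase of transcript (y axis, %) in each of the 6 samples, for the prostaglandin E synthases (left) and for the PGE2 receptors (right). PTGES holds 15.1% and then 27.5% of the synthase counts on average, PTGER4 holds 38.7% and then 45.8% of the receptor counts, and PTGER1 has no visible part because it had 0 counts.

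HPGD encodes 15-hydroxyprostaglandin dehydrogenase, which carries out the first step of PGE2 inactivation. Its level was 43.0, 47.5 and 45.3 CPM with siControl and 101, 107 and 118 CPM with siKMT9α#1. Every siKMT9α#1 sample lay above every siControl sample. The means were 45.3 ± 2.24 and 109 ± 8.40 CPM (SD, n = 3 each), a 2.41-fold difference, with a log2 fold change of 1.27 ± 0.06 (SE; adjusted p = 4.79e-13), and 13.2% of all genes tested changed more. The breakdown enzyme rose along with the cyclooxygenase and the synthase. Within a sample, the log2 ratio of HPGD to PTGES per kilobase was -1.83 ± 0.07 with siControl and -1.51 ± 0.10 with siKMT9α#1 (SD, n = 3 each), a difference of 0.31 (exact two-sided permutation p = 0.1, the smallest possible). HPGD transcript NM_000860 lies on the minus strand of chromosome 4 from 175411328 to 175443792, and the annotation places a lncRNA on the opposite strand within its span.

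ABCC4 encodes MRP4, a transporter that carries PGE2 out of cells among other substrates. Its level was 68.6, 58.3 and 64.6 CPM with siControl and 152, 158 and 172 CPM with siKMT9α#1. The groups were far apart, and this was the member with the largest absolute log2 fold change in the fit. The means were 63.8 ± 5.17 and 161 ± 10.6 CPM (SD, n = 3 each), a 2.52-fold difference, with a log2 fold change of 1.33 ± 0.06 (SE; adjusted p = 2.71e-13). A larger absolute change was seen in 11.7% of the genes tested. Transcript NM_005845 lies on the minus strand of chromosome 13 from 95672083 to 95953687, where the annotation also has a lncRNA and a snoRNA on the opposite strand. With every transcript as a feature, where 76.3% of the 24770 transcripts tested were called, the second transcript NM_001105515 had a log2 fold change of 1.26. In the same fit the second HPGD transcript, NM_001145816, was at 1.27, and the second PTGES2 transcript, NR_027812, at 0.09 (adjusted p = 0.277). These transcripts share exons with the chosen ones and are no separate evidence.

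The receptors EP2 and EP4, both coupled to Gs and the production of cyclic AMP, had much lower transcript levels than the enzymes. PTGER2 was at 2.12, 2.10 and 2.13 CPM with siControl and 3.33, 2.92 and 3.35 CPM with siKMT9α#1, from 34 to 64.5 counts per sample. The groups did not overlap. Its log2 fold change was 0.60 ± 0.17 (SE; adjusted p = 0.00362). PTGER4 was at 2.02, 1.61 and 1.87 CPM with siControl and 3.93, 3.51 and 4.13 CPM with siKMT9α#1, from 26 to 79 counts per sample. Here too all siKMT9α#1 samples were above all siControl samples. The means were 1.83 ± 0.21 and 3.86 ± 0.32 CPM (SD, n = 3 each), a 2.11-fold difference, with a log2 fold change of 1.07 ± 0.17 (SE; adjusted p = 1.48e-05).

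PTGER1 had 0 counts in all samples, and a count of 0 allows up to 3 counts per library, which is 0.156 to 0.227 CPM in these libraries. PTGER3 had 0 counts in each siControl sample and 1, 1 and 2 with siKMT9α#1, all within that limit. These limits cover counting error only. Among the 4 receptors, PTGER4 made up 38.7 ± 2.88% of the counts per kilobase with siControl and 45.8 ± 0.38% with siKMT9α#1 (SD, n = 3 each; exact two-sided permutation p = 0.1, the smallest possible). The difference of 7.13 percentage points became 4.47 with counts summed over the transcripts of each receptor (exact two-sided permutation p = 0.2). PTGER2 and PTGER4 have 1 listed transcript each and PTGER1 had 0 counts, so the summing altered only the PTGER3 counts. The span of PTGER4 (chromosome 5, 40680032 to 40693837, plus strand) overlaps TTC33 on the opposite strand in the annotation, and whether counting used the strand is not stated. The letters ACATTCA, complementary to bases 2 to 8 of the guide strand of siKMT9α#1, occur in the 3′ UTR of PTGER4 and of PTGS1, once in each, in that of no other member, and in 14.1% of 12183 tested genes with an annotated 3′ UTR. Their part in these values was not tested.

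By level per kilobase of transcript, the siControl order was PTGES3 (304 CPM per kilobase), PTGES (58.2), PTGS2 (39.6), PLA2G4A (25.2), PTGES2 (24.1), HPGD (16.4), ABCC4 (11.0), PTGER2 (0.856), PTGER4 (0.537) and PTGS1 (0.149). The ranges of PLA2G4A and PTGES2 overlapped over the siControl samples, and those of the other neighbours did not. With siKMT9α#1 PLA2G4A moved from place 4 to place 7 at 12.5 CPM per kilobase, while HPGD moved to place 4 at 39.5 and ABCC4 to place 5 at 27.8. PTGER2 at 1.29 and PTGER4 at 1.13 CPM per kilobase then overlapped. The order thus changed in the middle of the scale, and the ends stayed as they were.

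The rest of the pathway was described by 12 lists of 152 genes in all, of which 114 were tested. Of these, 53 rose and 37 fell, 78.9% called beside 75.6% of all genes tested, with a median log2 fold change of 0.11. At the stricter threshold 25 were higher and 12 lower. Of the genes named below, ACSL1, LPCAT2, PLAA, PTGDR2, ARRB1 and HIF1A overlap a further transcript of the deposited table, and reads of such pairs may not be told apart.

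Upstream, the other phospholipases A2 and enzymes of arachidonate release split evenly. Of 8 tested, 3 rose and 3 fell, with a median log2 fold change of -0.04. PLA2G12A, a secreted phospholipase, fell from 21.4 ± 2.02 to 8.64 ± 0.87 CPM (log2 fold change -1.31), and PLA2G4C, a relative of PLA2G4A, fell by 0.66 on the log2 scale. PLA2G6, a calcium-independent phospholipase, rose (0.93), as did MGLL, which frees arachidonic acid from a monoacylglycerol (0.64). PLA2G16 had the highest level per kilobase in this list, 65.0 with siControl and 53.1 CPM per kilobase with siKMT9α#1, and the phospholipase activator PLAA was at 22.1 and 21.2. PLAA came second with siControl, and MGLL did with siKMT9α#1 at 29.9 CPM per kilobase. The list of arachidonate reacylation holds acyl-CoA synthetases and lysophospholipid acyltransferases, whatever acyl chain they prefer. Of 10 tested, 4 rose and 4 fell, with a median of -0.10. ACSL4, an acyl-CoA synthetase with a preference for arachidonate, rose from 163 ± 6.48 to 278 ± 20.8 CPM (0.77), and LPCAT1 rose (0.59). LPCAT2 (-0.66) and ACSL1 (-0.49) fell. ACSL3, the list's most abundant transcript per kilobase, rose from 174 to 244 CPM per kilobase (log2 fold change 0.48).

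In the branches that compete for the same substrates, fewer genes rose than fell. Of 4 other prostanoid synthases tested, 2 fell and none rose. AKR1C3, a prostaglandin F synthase, fell from 864 ± 3.78 to 579 ± 13.8 CPM (log2 fold change -0.58), and AKR1B1, which has the same activity, fell by 0.33 on the log2 scale. AKR1C3 has close paralogs, and how shared reads were assigned is not stated. Of 7 tested genes of the lipoxygenase and leukotriene branch, 2 rose and 4 fell, with a median of -0.39. Those that rose were the leukotriene B4 receptors LTB4R (1.18) and LTB4R2 (1.14), of which the second overlaps CIDEB. ALOXE3, a lipoxygenase best known from skin, fell (-0.86), and LTA4H, which makes leukotriene B4, fell by 0.18 on the log2 scale. Of the microsomal glutathione transferases, the family to which PTGES belongs, MGST2 (-0.70) and MGST3 (-0.62) fell, and MGST1, at 358 and 381 CPM per kilobase, had a log2 fold change of 0.09 (adjusted p = 0.127). The other prostanoid receptors were nearly silent: only PTGDR2, a prostaglandin D2 receptor, passed the filter, at 6.97 ± 0.41 and 7.26 ± 0.65 CPM (SD, n = 3 each), with a log2 fold change of 0.05 (adjusted p = 0.675).

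Among the other genes of prostaglandin transport and breakdown, 5 of 11 tested rose and 4 fell, with a median of -0.11. ABCC3, a transporter of the same family as ABCC4, rose from 69.1 ± 6.41 to 179 ± 15.7 CPM (log2 fold change 1.37), and ABCC5 rose as well (0.95). The enzymes went the other way. CBR3, a carbonyl reductase, fell from 13.1 ± 1.63 to 3.87 ± 0.084 CPM (-1.76), and CBR1, which can turn PGE2 into prostaglandin F2α, fell by 0.84 on the log2 scale. PTGR1, which acts on the product of HPGD, fell from 218 to 125 CPM per kilobase (-0.81). CBR1 and CBR3 both overlap a further transcript of the deposited table.

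**Figure D4:**
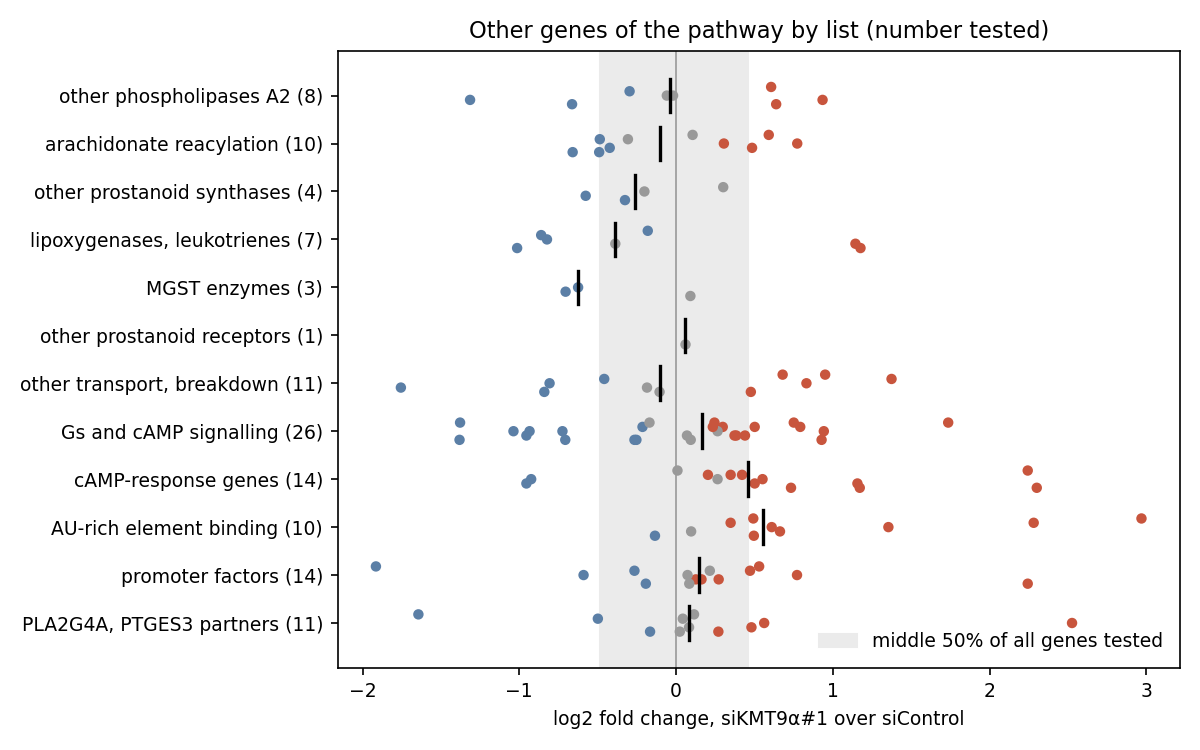
Log2 fold change, siKMT9α#1 over siControl, of each tested gene of the 12 lists (points; red for higher and blue for lower at an adjusted p under 0.05, grey for not called), with the median of each list as a black bar and the middle 50% of all genes tested shaded from -0.49 to 0.46. The list medians run from -0.62 for the MGST enzymes to 0.55 for the AU-rich element binding proteins.

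Downstream of EP2 and EP4, 26 genes of Gs and cyclic AMP signalling were tested, of which 12 rose and 10 fell, with a median of 0.16. ATF1, a transcription factor of the CREB family, rose from 19.1 ± 0.47 to 63.7 ± 2.24 CPM (log2 fold change 1.74). PRKAR2B, a regulatory subunit of protein kinase A, fell (-1.38), as did RAPGEF3, the cyclic AMP sensor EPAC1 (-1.38), and ARRB1, which encodes β-arrestin 1 (-1.04). The most abundant transcripts per kilobase were GNAS, the Gs α subunit, at 286 and then 239.9 (log2 fold change -0.25), and PRKAR1A, at 65.3 and then 84.6 (0.37). Of 14 tested genes known to respond to cyclic AMP, 10 rose and 2 fell, with a median of 0.46. The AP-1 subunits FOSB (2.30), FOS (2.24) and JUNB (1.16) rose, and so did AREG, a growth factor of the EGF family (1.17). CREM (98.6 to 50.9 CPM, log2 fold change -0.95) and NR4A1 (189 to 99.9 CPM, -0.92) were the 2 that fell. FOS went from 5.31 ± 0.50 to 25.2 ± 1.72 CPM. DUSP1, a MAP kinase phosphatase, and SIK1, a kinase, were the most abundant per kilobase and rose less (0.20 and 0.42). Most of these genes respond to many other signals too.

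Genes that act on the PTGS2 transcript and promoter were also measured. Of 10 tested proteins that bind AU-rich elements, such as those in the PTGS2 transcript, 8 rose and 1 fell, with a median of 0.55. ZFP36L2 rose from 9.54 ± 0.69 to 75.1 ± 2.37 CPM (log2 fold change 2.97) and ZFP36L1 from 47.1 ± 0.56 to 229 ± 11.9 CPM (2.28), and both encode proteins that speed up the decay of their target transcripts. HNRNPD (1.35), TIAL1 (0.66), a translation repressor, and RBM3 (0.49), a cold-induced RNA-binding protein, rose too. Of 14 tested transcription factors known to act on the PTGS2 or PTGES promoter, 7 rose and 4 fell, with a median of 0.14. FOS rose as given above, JUN rose from 90.0 ± 5.64 to 154 ± 3.30 CPM (0.77), CEBPD fell (-0.59), and EGR1, a known activator of the PTGES promoter, fell from 12.1 ± 0.39 to 3.31 ± 0.84 CPM (-1.91). ATF4 (-0.19) fell and HIF1A (0.13) rose, and they were the most abundant per kilobase in this list.

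Of 11 inhibitors and partners of PLA2G4A and PTGES3, 4 rose and 3 fell, with a median of 0.08. CAV1, the main protein of caveolae, rose from 66.0 ± 3.48 to 380.5 ± 8.11 CPM (log2 fold change 2.53). Of the kinases known to phosphorylate PLA2G4A, MAPK3 fell from 27.7 ± 1.81 to 9.01 ± 1.46 CPM (-1.64) and MAPK14 fell (-0.50). HSP90AB1 (0.08, adjusted p = 0.122) and HSP90AA1 (0.02, adjusted p = 0.684), the chaperones that PTGES3 assists, were the most abundant per kilobase with siControl and did not pass the test.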

How the data were processed

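Total RNA of 6 A549 samples was sequenced. Per the submitters' notes, STAR placed the reads on hg19 and HOMER counted them on RefSeq transcripts for the authors. The deposited values are estimated counts that are not normalized, 36.4% of them not whole and all multiples of 0.5. Counting options and use of the strand are not given in the sources used here. Deposited columns of the authors' own comparison, a fold ratio and p-values, raw and adjusted, per transcript, were not used. Of 38767 rows, 1182 without symbol or counts were left out. Counts of the chosen transcripts were rounded and fitted in edgeR 4.0.16 (R 4.3.3) with TMM factors, filterByExpr and the two-sided quasi-likelihood test on all 6 samples. A standard error is the log2 fold change divided by the square root of F. P-values of this fit set the group difference against the spread between these samples within groups, a spread estimated partly from all genes. All p-values are from this fit unless named otherwise. Single values and shares were compared by exact two-sided permutation tests (scipy 1.17.1), and the HPGD to PTGES ratio had 0.5 counts added. On simulated data, 191 of 198 genes changed by 1 on the log2 scale were recovered among 13779 genes, with 15 unchanged genes called. The labels call the samples biological replicates, and each was counted as 1 sample. Samples of a group differed by more than sampling noise (chi-square per gene 1.34 to 5.00), which cannot show how separately they were grown. The biological coefficient of variation in the fit was 4.47%.

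The members and lists were chosen with earlier results of these data known. All members, N6AMT1 and TRMT112 are named. Of each list, up to 4 called genes with the largest absolute log2 fold change and a mean of at least 1 CPM are named, with the 2 of highest level per kilobase with siControl and PTGER1 to PTGER4. A gene that this rule names is not reported here. The markers named, the overlapping genes, CREM and NR4A1 fall outside this rule and were chosen after their values were seen. Positions are the deposited ones on hg19, annotation is GENCODE's for GRCh37, and promoters are RefSeq's on GRCh38.p14. Alternatives were library size alone, RLE factors, DESeq2 1.42.0, the likelihood-ratio test, a minimum of 10 counts per sample or no filter, all transcripts, summed transcripts, a replicate block, doubled counts and each sample left out.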

Additional observations from a re-analysis of the deposited data

How the results depend on the processing

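Each called member kept its direction and an adjusted p under 0.05 in all 16 alternatives to the fit. The largest adjusted p among them was 0.0422 for PTGES3 and 0.0254 for PTGER2, and the log2 fold change of PLA2G4A ranged from -1.11 to -0.90 and that of PTGS2 from 0.93 to 1.13. PTGES2, not called, turned to -0.051 with library size alone and ranged from -0.024 (without siControl replicate 1) to 0.144 (without siControl replicate 2) with a sample left out. Library size alone moved the median of all genes by -0.11 and the share of calls at the stricter threshold that were higher from 55.9% to 44.9%. At that threshold (p under 1e-08, absolute log2 fold change above 0.26) counts were less stable. With counts summed over transcripts, 0 members were lower in place of 1, since the unadjusted p of PLA2G4A was 1.91e-08, list genes lower were 7 in place of 12, and all genes lower were 837 in place of 1479. The likelihood-ratio test gave 38 list genes higher and 22 lower, with 3086 and 2876 over all genes, and no filter gave 38 and 23, with 3184 and 2886. DESeq2 gave 19 list genes lower.

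Over the fits without 1 sample there were 6 to 6 members higher and 2 to 3 lower, 4 to 4 and 1 to 1 at the stricter threshold. It gave 17 to 32 list genes higher and 8 to 15 lower there, and 1400 to 2287 and 926 to 1798 genes in all, the lowest without siKMT9α#1 replicate 2. The HPGD to PTGES difference stayed between 0.26 and 0.36, that of the PTGES share between 12.2 and 12.7 percentage points and that of the PTGER4 share between 5.64 and 8.51. With counts summed over transcripts, the difference of the PTGER4 share was 4.47 in place of 7.13 (exact permutation p = 0.2) and that of the PTGS2 share 0.546 in place of 0.277 percentage points.

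Deviations of same-numbered samples from their group means had correlations of -0.08, 0.02 and -0.08. With 3 samples per group and no differently numbered pairs beside them, these values cannot show whether the numbers pair the samples. With the replicate block, 16 list genes were higher and 974 genes in all were lower at the stricter threshold, and no member's call changed. The causes of these changes were not tested. At 26 to 79 counts per sample, PTGER2 and PTGER4 have the widest standard errors among the tested members.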
